A study of Mus musculus with 8 samples.

Results

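The genes described here build or coat the brush border, the carpet of actin-filled microvilli on the luminal face of intestinal epithelial cells. Of 10 genes chosen by symbol, 9 are among the 17041 genes of the deposited table: Cdhr5, Ush1c, Vil1, Espn, Myo1a and Ezr of the scaffold, and the membrane mucins Muc1, Muc4 and Muc13. Muc3 has no row under that symbol and was not analysed here. The rule that picks the genes uses no measured value, but the members were chosen with earlier results of these data known. Messenger RNA was sequenced from whole tissue of the proximal large intestine of 8 ApoE knockout mice, 1 library per mouse, all aged 26 weeks. Every mouse lacked ApoE, was born germ-free and was colonized by a single gavage at 8 weeks of age. The core group (3 mice) received a bacterial community that makes no butyrate, and the R. intestinalis group (5 mice) received the same community plus Roseburia intestinalis, a butyrate producer. There is no germ-free group, and every mouse carries the knockout, so the values speak only to the addition of R. intestinalis on that background. The labels give no sex, diet, cage or isolator for single mice, so the added bacterium and a shared isolator cannot be told apart. The core libraries carry the numbers 3 to 5 in the submitters' sample names, and other core mice, if any, are not analysed here.

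A microvillus is a bundle of actin filaments crosslinked by villin (Vil1) and espin (Espn), and tied to the surrounding membrane by the motor myosin-1a (Myo1a) and by ezrin (Ezr). At the tips, the protocadherins Cdhr5 and Cdhr2 bind each other between neighbouring microvilli, and inside the cell harmonin (Ush1c) links them to the actin core with Myo7b, Anks4b and Calml4. Membrane mucins are long glycosylated proteins anchored in the same membrane, and their outer parts form the glycocalyx that keeps bacteria from the cell surface. Butyrate is a main fuel of the colonocytes that carry this border.

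The promoters of 4 scaffold genes and of Muc1 are shown because these scaffold genes had the smallest unadjusted p-values of the members, while Muc1 had the widest spread of the members. Each is the 250 bases before the RefSeq start, in the gene's own direction (GRCm38.p6: Cdhr5 at chr7:141276787-141277036, minus strand; Ush1c at chr7:46238491-46238740, minus strand; Vil1 at chr1:74409134-74409383, plus strand; Myo1a at chr10:127705006-127705255, plus strand; Muc1 at chr3:89228806-89229055, plus strand). Capitals mark matches to 4 searched motifs.
Cdhr5: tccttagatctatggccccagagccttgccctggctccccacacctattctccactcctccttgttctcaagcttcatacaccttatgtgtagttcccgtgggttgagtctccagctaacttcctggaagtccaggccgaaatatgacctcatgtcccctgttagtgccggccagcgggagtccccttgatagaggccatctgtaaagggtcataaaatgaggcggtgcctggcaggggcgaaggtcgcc
Ush1c: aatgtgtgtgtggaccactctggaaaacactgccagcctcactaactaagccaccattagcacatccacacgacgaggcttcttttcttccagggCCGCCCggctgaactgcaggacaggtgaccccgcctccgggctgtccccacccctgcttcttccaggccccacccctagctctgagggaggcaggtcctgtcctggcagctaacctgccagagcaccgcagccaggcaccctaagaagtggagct
Vil1: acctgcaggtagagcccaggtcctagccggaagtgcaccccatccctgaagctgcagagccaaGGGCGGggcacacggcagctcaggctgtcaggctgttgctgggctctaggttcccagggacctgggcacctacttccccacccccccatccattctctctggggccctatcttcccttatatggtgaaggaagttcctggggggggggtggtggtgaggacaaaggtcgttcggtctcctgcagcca
Myo1a: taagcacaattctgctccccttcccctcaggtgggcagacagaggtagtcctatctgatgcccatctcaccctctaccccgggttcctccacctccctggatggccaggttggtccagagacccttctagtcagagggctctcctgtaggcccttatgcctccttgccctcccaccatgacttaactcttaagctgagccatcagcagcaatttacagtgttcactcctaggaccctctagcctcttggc
Muc1: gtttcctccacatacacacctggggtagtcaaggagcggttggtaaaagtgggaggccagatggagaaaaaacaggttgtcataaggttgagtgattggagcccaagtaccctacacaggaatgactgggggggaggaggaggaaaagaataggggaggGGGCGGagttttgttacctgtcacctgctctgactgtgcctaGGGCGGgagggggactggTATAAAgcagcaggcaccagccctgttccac

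The motifs were searched on both strands from 250 bases before to 50 bases after each start: CAAAGTCC for HNF4, TTTATNG for CDX factors, the GC box GGGCGG and the TATA box TATAAA. Matches of TTTATNG and TATAAA can overlap each other, and they do in Muc4. The GC box was found for 5 members (Ush1c, Vil1, Ezr, Espn and Muc1), in 6 of the 12 windows that RefSeq gives for the 9 members, against 35.7% of 32851 promoters. In Ush1c it is the run CCGCCC of the opposite strand, and in Muc1 it occurs at 2 places, upstream of a TATA box. The TATA box was present for Muc1 and Muc4 (13.6% of all promoters), TTTATNG for Espn and Muc4 (10.9%) and CAAAGTCC for 1 window of Muc13 (1.42%). None of the 4 motifs was found in the windows of Cdhr5 and Myo1a.

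Values are the authors' normalized expression, which is not divided by gene length. Estimated depth ran from 4597893 to 15352045 reads per library, and a value of 50 stood for between 31 and 109 reads. The epithelial marker Epcam lay between 11501 and 14865 in all 8 libraries, while Lct, the lactase of the small intestine, was at most 6.35. Some other small intestinal markers were far higher, with Sis from 11.35 to 1370 and Fabp2 from 1665 to 6700 over the libraries. R. intestinalis replicate 1 stood apart, as the highest of the 8 libraries in 28.1% of the 13020 genes tested and the lowest in 25.1%. It also had the strongest tilt towards GC-rich transcripts, with a median log2 deviation of 0.59 over genes of at least 55% GC and −0.35 over genes of at most 45%. Core replicate 3 and R. intestinalis replicates 2 and 4 had the lowest values of Hoxb13, a homeobox gene of the distal gut (25.3, 2.16 and 8.26), against 141 to 663 in the others.

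All 6 scaffold genes had a higher mean with R. intestinalis, and the 3 membrane mucins a lower one. None of these differences passed the test. With limma on log2(value + 1), and with differences taken as R. intestinalis group minus core group, 0 of the 9 members had an adjusted p below 0.05, as was the case for 0% of the 13020 genes tested (smallest adjusted p = 0.503). Unadjusted, 4 members (Ush1c, Myo1a, Cdhr5 and Vil1) had a p below 0.05, all higher, where 8.13% of all genes tested had such a p, 4.44% higher and 3.69% lower. The log2 difference was above 0 in 6 members and in 49.6% of all genes tested. Its median was 0.48 over the members and −0.0035 over all genes tested. In 2 members, Cdhr5 and Ush1c, every R. intestinalis library exceeded every core library. Groups were apart in this sense in 5.84% of all genes tested, 2.53% higher and 3.31% lower. In the authors' deposited table no member reached a posterior probability of differential expression of 0.95 (0.481% of the 17041 genes did) or of 0.90 (0.616%), and the highest was 0.28, for Ush1c.

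**Figure D1:**
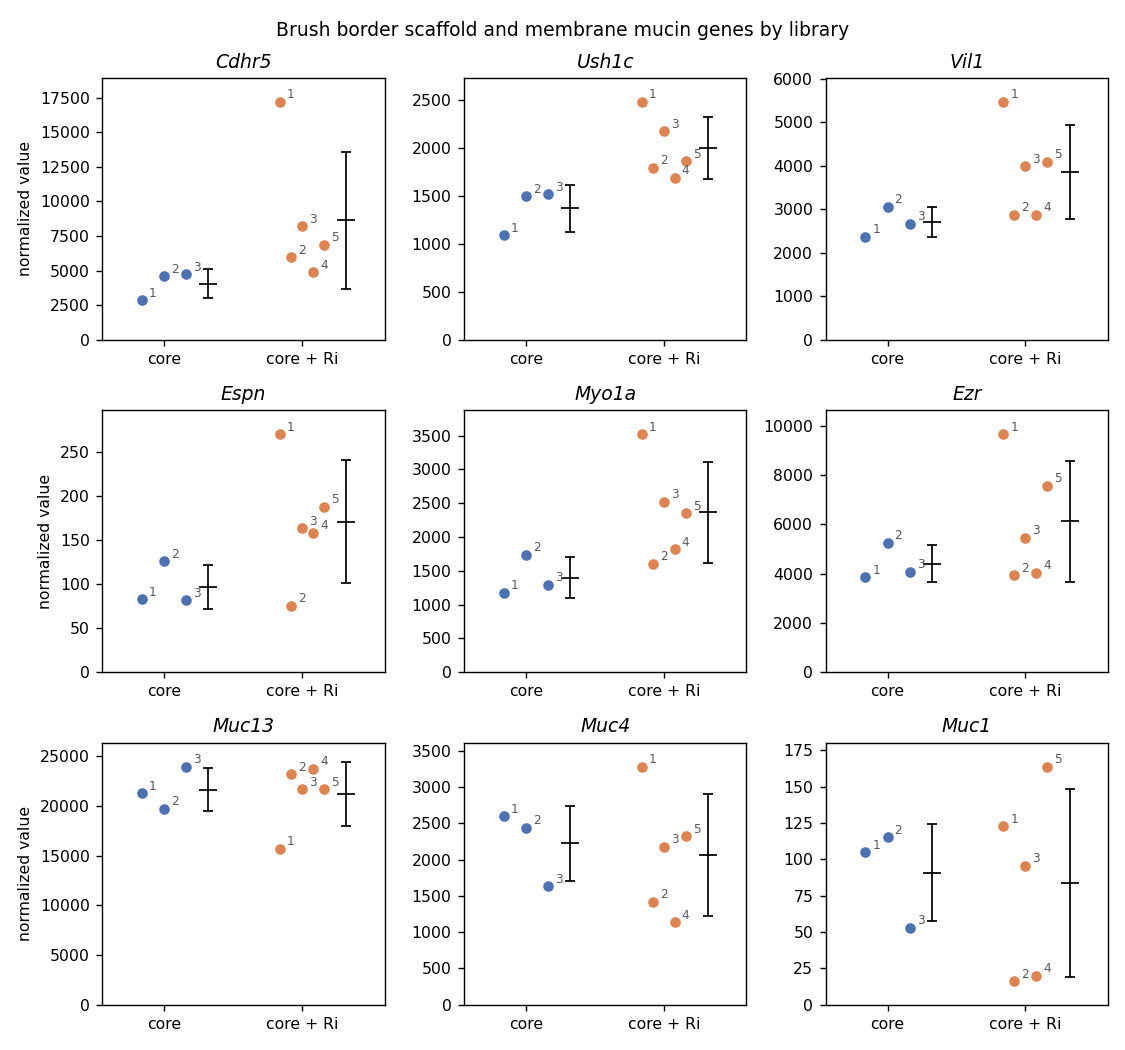
Normalized value (vertical axis, linear from 0) of each member in each library, for core (blue, n = 3) and core plus R. intestinalis (orange, n = 5). Numbers are replicates, bars are mean and SD. The groups do not overlap in Cdhr5 and Ush1c, and R. intestinalis replicate 1 is the highest library in 7 of the 9 panels and the lowest for Muc13.

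The tip adhesion complex gave the scaffold genes whose groups were apart. Cdhr5, the protocadherin of the microvillus tip, was 2848, 4591 and 4716 in core replicates 1 to 3. In R. intestinalis replicates 1 to 5 it was 17207, 5953, 8221, 4875 and 6860.1. Every R. intestinalis library lay above every core library, although replicate 4 exceeded the highest core value only slightly, and replicate 1 was far above its group. The means were 4052 ± 1045 (SD, n = 3) and 8623 ± 4953 (SD, n = 5), a ratio of 2.13 (log2 difference 0.97, SE 0.357, 95% interval 0.18 to 1.76, limma adjusted p = 0.588). Without R. intestinalis replicate 1 the mean of that group was 6477 ± 1418 (n = 4) and the log2 difference 0.69. The spread within the R. intestinalis group was 57.4% of its mean for Cdhr5, the widest of the scaffold genes.

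Ush1c encodes harmonin, the PDZ scaffold to which the cytoplasmic tails of the protocadherins bind. Its values were 1092, 1499.9 and 1522 in core and 2487, 1797, 2179.95, 1691 and 1865 in the R. intestinalis libraries. The groups were apart by a gap smaller than the SD of either. The means were 1371 ± 242 and 2004 ± 326 (log2 difference 0.55, SE 0.167, 95% interval 0.18 to 0.92, limma adjusted p = 0.588). Ush1c had the smallest unadjusted p of the members, 0.00764 by limma, and kept a log2 difference of 0.47 without R. intestinalis replicate 1.

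The actin bundlers overlapped between the groups. Vil1, villin, which bundles actin and severs it when calcium rises, was 2373, 3059 and 2670.2 in core. The R. intestinalis libraries had 5476, 2880.2, 3994, 2874 and 4092. Replicates 2 and 4 lay within the core range, and replicates 1, 3 and 5 above it. The means were 2701 ± 344 and 3863 ± 1074, a ratio of 1.43 (log2 difference 0.48, 95% interval 0.013 to 0.95, limma adjusted p = 0.588). Espn, espin, a bundler that lengthens actin protrusions, was among the lower members, at 82.5, 126 and 81.5 in core and 269.8, 75.5, 163, 158 and 187 with R. intestinalis. R. intestinalis replicate 2 was the lowest of all 8 libraries and replicate 1 the highest. The log2 difference was 0.74 (SE 0.349, 95% interval −0.037 to 1.51, limma adjusted p = 0.588), and the estimated reads behind Espn ran from 52 to 404 per library.

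Of the membrane linkers, Myo1a had the larger difference. Myo1a, the motor that forms the lateral bridges between core bundle and membrane, was 1174, 1737 and 1291 in core. With R. intestinalis it was 3520.0, 1608, 2522, 1819 and 2351. Only R. intestinalis replicate 2 lay below the highest core library. The means were 1401 ± 297 and 2364 ± 747, a ratio of 1.69 (log2 difference 0.72, SE 0.241, 95% interval 0.19 to 1.25, limma adjusted p = 0.588). Ezr, ezrin, which links membrane proteins to actin when phosphorylated, was 3849, 5257 and 4082 in core and 9653, 3932, 5451, 4031 and 7557 with R. intestinalis. Replicates 2 and 4 again lay inside the core range, and the log2 difference of 0.40 had an interval from −0.23 to 1.03 (limma adjusted p = 0.630).

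**Figure D2:**
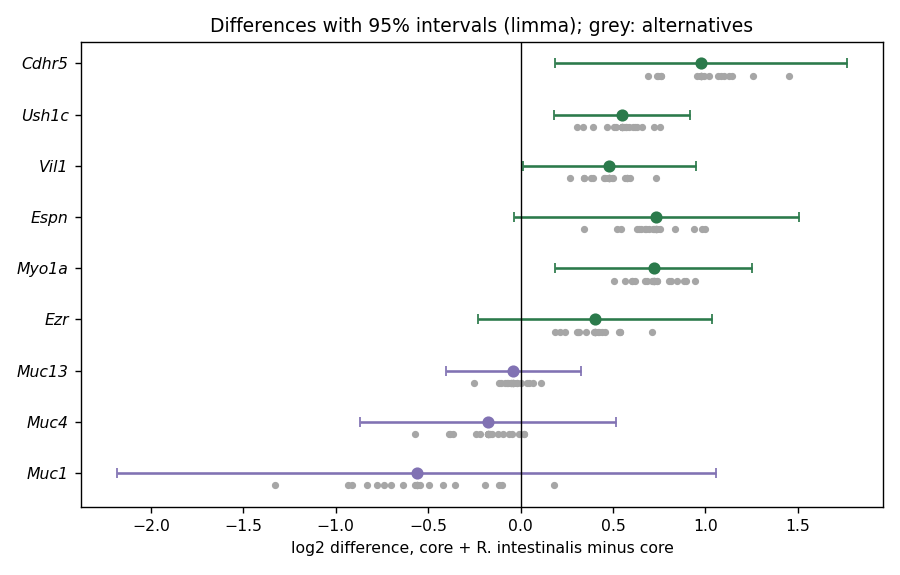
Log2 difference between the R. intestinalis and core groups (horizontal axis) for each member, with its 95% limma interval. Green marks scaffold genes, purple membrane mucins, and grey points the same difference under 21 alternative settings. The 6 scaffold genes lie above 0 under every setting run, from 0.19 (Ezr) to 1.45 (Cdhr5). The intervals of the 3 mucins include 0, as do those of the scaffold genes Espn and Ezr. The filter and trend settings cannot move the difference.

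None of the membrane mucins had a higher mean with R. intestinalis, and their order of libraries differed. Muc13, a transmembrane mucin of the apical surface of the large intestine, was 21259, 19704 and 23955 in core and 15713, 23181, 21695, 23757 and 21702 with R. intestinalis. R. intestinalis replicate 1 was the lowest of the 8 libraries, and the other 4 of its group lay within the core range. The means were 21639 ± 2151 and 21210 ± 3204 (log2 difference −0.039, 95% interval −0.40 to 0.33, limma adjusted p = 0.932). The interval leaves room for changes of either sign, and the sign itself turned without R. intestinalis replicate 1 (0.065) and without core replicate 3 (0.036).

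Muc4, a large mucin that can bind the receptor ErbB2, was 2599.8, 2437 and 1630.05 in core and 3279.6, 1421, 2175, 1136 and 2319 with R. intestinalis. The R. intestinalis libraries spread past the core range on both sides, with replicates 2 and 4 below it and replicate 1 above it. The log2 difference was −0.17 (SE 0.313, 95% interval −0.87 to 0.52, limma adjusted p = 0.830). Muc1, the mucin with a signalling cytoplasmic tail, was 105, 115 and 52.8 in core and 123, 16.2, 95.5, 20.1 and 164 with R. intestinalis. R. intestinalis replicates 2 and 4 were the lowest of all libraries, at an estimated 15 and 17 reads, while replicate 5 was the highest of all. The log2 difference was −0.56 with an interval from −2.18 to 1.06 (limma adjusted p = 0.762), although the ratio of the means was only 0.921. It varied with the library left out, at −0.12 without R. intestinalis replicate 2, −0.19 without replicate 4, −0.36 without core replicate 2, −0.91 without core replicate 3 and −0.93 without R. intestinalis replicate 5.

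Per kilobase of the longest GENCODE transcript, the order of the members differed little between libraries. Muc13 was the highest member in every library except R. intestinalis replicate 1, where Cdhr5 passed it (6547 against 5292 per kilobase). Cdhr5 and Ezr held ranks 1 to 3, Vil1 rank 4 in all libraries, Myo1a and Ush1c ranks 5 and 6, Muc4 rank 7, and Espn and Muc1 ranks 8 and 9. The authors' transcript models were not used here, so this order rests on the lengths of another annotation.

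Much of the order of libraries recurred from member to member. Within the R. intestinalis group, replicates 2 and 4 were the 2 lowest libraries for 8 of the 9 members, and the 2 highest for the remaining one, Muc13. Of all genes tested, 20.2% had these 2 libraries lowest and 22.6% had them highest. R. intestinalis replicate 1 was the highest of the 8 libraries for 7 members, against 28.1% of all genes, and core replicate 1 was the lowest for 5, all of them scaffold genes, against 15.6%. The mean log2 deviation of the 9 members was 0.75 in R. intestinalis replicate 1, 0.39 in replicate 5 and 0.28 in replicate 3. It was −0.44 and −0.34 in replicates 2 and 4, close to the −0.33 and −0.32 of core replicates 1 and 3, and 0.0085 in core replicate 2. Ezr and Vil1 followed this mean most closely (root mean square difference 0.11 and 0.12 on the log2 scale), and Muc1 least (0.91).

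**Figure D3:**
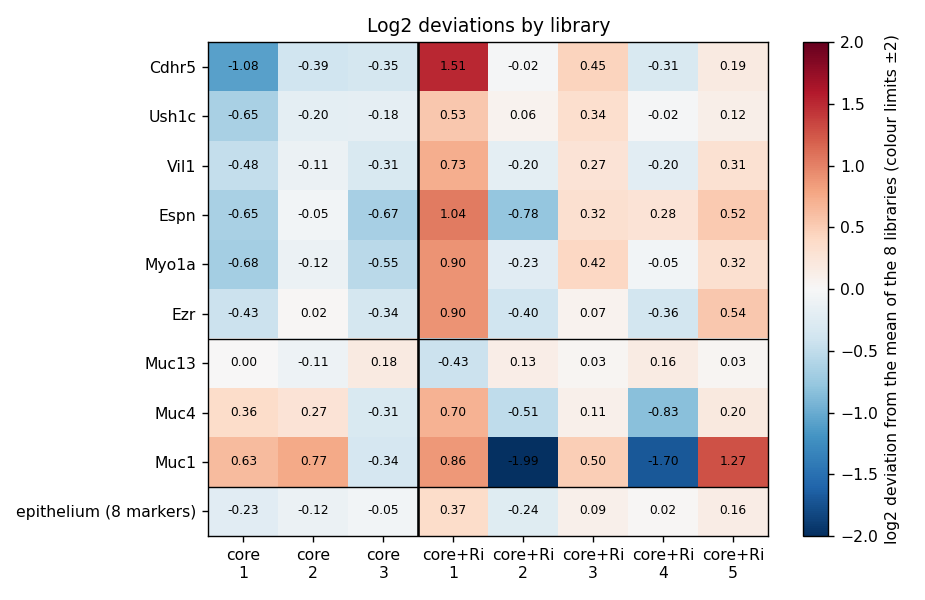
Log2 deviation of each member from its mean over the 8 libraries, with the mean of 8 general epithelial markers in the last row. Red is above and blue below the mean. R. intestinalis replicate 1 is red for all members but Muc13, with 1.51 for Cdhr5, and replicates 2 and 4 are deep blue for Muc1 (−1.99 and −1.70).

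The mucins split by the library order that Hoxb13 gives. In core replicate 3 and R. intestinalis replicates 2 and 4, the libraries with the least Hoxb13, Muc1 and Muc4 had their 3 lowest values and Muc13 its 3 highest. Of all genes tested, 5.61% had these as the 3 lowest libraries and 6.18% as the 3 highest. In the same libraries Slc10a2, a bile acid transporter of the distal small intestine, was 509.7, 818 and 949, against 13.9 to 414 in the others. B4galnt2, a glycosyltransferase, was 11291, 15476 and 14797, against 4380 to 10571. Sis, a small intestinal marker, was 580, 945 and 1370, against 11.35 to 429. Fabp2, another such marker, was 5685, 4642 and 4394, within the 1665 to 6700 of the others. The ratio of Muc1 to Muc13, which no scaling of the libraries alters, was 0.0022, 0.000698 and 0.000844 in these 3 libraries and between 0.0044 and 0.00782 in the other 5. These libraries were singled out with their values known, so the pattern is a description and its part in the group differences was measured only by leaving them out.

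**Figure D4:**
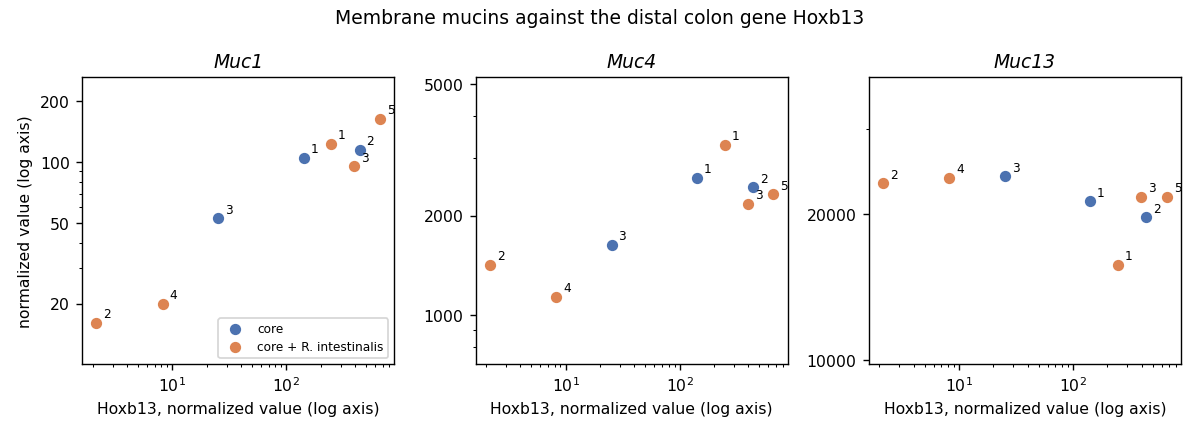
Normalized value of Muc1, Muc4 and Muc13 (vertical, log axes) against that of Hoxb13 (horizontal, log axis) in each library, with replicate numbers. The libraries with Hoxb13 at 25.3 or less have the 3 lowest values of Muc1 and of Muc4 and the 3 highest of Muc13.

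Without those 3 libraries, 2 core and 3 R. intestinalis libraries remained, and the scaffold differences were larger. The groups were then apart in 6 members, all the scaffold genes, where 36.5% of 13033 genes tested were apart in so small a set. The log2 differences were 1.45 for Cdhr5, 0.98 for Espn, 0.95 for Myo1a, 0.76 for Ush1c, 0.73 for Vil1 and 0.71 for Ezr, with limma adjusted p-values from 0.267 to 0.284. Muc1 and Muc4 turned to 0.18 and 0.018, and Muc13 was −0.071. Single libraries also moved the counts. Without core replicate 1, 0 members and 2.07% of all genes tested had an unadjusted p below 0.05, and Cdhr5 was at 0.74 with a limma adjusted p of 0.977. Without core replicate 2, as without R. intestinalis replicate 2, 5 members had such a p and 4 had groups apart. The shares over all genes were also larger there, at 9.61% and 14.7% for the p and 19.8% and 13% for groups apart. Without R. intestinalis replicate 1, 3 members (Cdhr5, Ush1c and Myo1a) and 7.34% of all genes had such a p, and the log2 difference was 0.56 for Myo1a, 0.54 for Espn, 0.34 for Vil1 and 0.21 for Ezr.

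Markers of other cell types of the gut wall also differed in mean between the groups. In bulk tissue, fewer cells of a type and less RNA per cell cannot be told apart. Of the general epithelial markers, 6 of 8 had a higher mean with R. intestinalis, with summed values of 72799 to 82278 in core and 71661 to 94502 with R. intestinalis. All 7 smooth muscle markers had a lower mean with R. intestinalis (sums of 134954 to 185923 and 90451 to 158996), as did 8 of 8 fibroblast, 5 of 5 endothelial, 5 of 5 tested adipocyte and 4 of 4 tested mesothelial markers. Median log2 differences of these lists were −0.49 for smooth muscle, −0.62 for fibroblast, −0.43 for endothelial, −1.92 for adipocyte and −0.36 for mesothelial markers. An unadjusted limma p below 0.05 was reached, always lower, by 4 smooth muscle, 4 fibroblast, 3 endothelial, 4 adipocyte and 0 mesothelial markers. Of all genes tested, 3.69% were lower at such a p. The part of these cell types in the scaffold differences was not tested beyond the scaling given below. No gene of these lists passed the adjusted threshold, and no marker on them was at 0 in all libraries. Surface colonocyte markers had a median log2 difference of 0.088 and tuft cell markers 0.22. The same medians were −0.017 for goblet, −0.074 for enteroendocrine, −0.12 for crypt, 0.026 for leukocyte and −0.38 for neuron and glia markers. It was 0.56 for small intestinal markers, 8 of 8 above 0, of which Alpi had an unadjusted p below 0.05. Such a p was also seen for Chga (log2 difference 0.71) and Gcg (−0.52) of the enteroendocrine list. Mki67 (−0.32) of the crypt list and Vip (−0.49) of the neuron and glia list had one too. Measured relative to the general epithelial markers of each library, the log2 difference was 0.76 for Cdhr5 and 0.51 for Myo1a, both with an unadjusted p below 0.05 (0.0221 and 0.0296 by limma), as had 9.1% of all genes tested, 1.51% higher. On that scale it was 0.52 for Espn, 0.34 for Ush1c, 0.27 for Vil1 and 0.19 for Ezr. For the mucins it was −0.78 (Muc1), −0.39 (Muc4) and −0.25 (Muc13). The median over all genes shifted to −0.22 there.

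The scaffold transcripts were richer in GC than most genes tested, and the GC tilt of the libraries differed. Their transcripts held between 52.8% (Ezr) and 62.1% (Espn) GC, against a median of 49.9% over the genes tested. Of the mucins, Muc13 and Muc4 held 49.3% and 49.7%, while Muc1 held 54.2%, more than Ezr, Vil1 and Myo1a. After a GC correction the log2 difference was 0.74 for Cdhr5, 0.62 for Myo1a, 0.38 for Vil1 and 0.32 for Ezr. It dropped from 0.74 to 0.34 for Espn and from 0.55 to 0.30 for Ush1c. For the mucins it was −0.70 (Muc1), −0.16 (Muc4) and −0.019 (Muc13). Ush1c then had an unadjusted limma p of 0.0600, which left 3 members with a p below 0.05, against 8.99% of all genes tested.

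The partners of the members were read from 8 lists of 56 genes, of which 49 were tested. Of these 36 had a log2 difference above 0, with a median of 0.16. By limma 0 passed the adjusted threshold, 10 were higher and 0 lower at an unadjusted p below 0.05, and the groups were apart in 7 higher and 3 lower genes. Of all genes tested, 49.6% were above 0. At such a p 4.44% were higher and 3.69% lower, and the groups were apart in 2.53% higher and 3.31% lower. The tip complex was split, with 2 of its 4 listed partners above 0 and 2 below. Cdhr2, the partner of Cdhr5, was 1294, 1756 and 1614 in core and 5324, 2035, 2899, 1834 and 2685 with R. intestinalis, so that every R. intestinalis library was above every core library. Its log2 difference was 0.83 (limma adjusted p = 0.588), and the ratio of Cdhr5 to Cdhr2 stayed between 2.20 and 3.23 in all 8 libraries. Myo7b, the motor that carries the complex to the tips, was also apart, at 346 to 419 in core and 427 to 1639 with R. intestinalis (log2 difference 0.81). Anks4b, the adaptor between Ush1c and Myo7b, averaged 1282 and 1198 (log2 difference −0.10).

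Among the brush border myosins all 4 tested were above 0 (49.6% of all genes tested) and 2 were apart and higher (2.53%). Myo5b, which drives apical recycling of membrane, averaged 870.2 in core and 1379 with R. intestinalis (log2 difference 0.65), and Myo1d 584 and 1394 (1.15), with 2878 in R. intestinalis replicate 1. Myo1e averaged 453 and 636. Of the actin regulators 7 of 8 were above 0, led by Baiap2l2, a membrane-curving protein of microvilli (95.2 and 189.95, log2 difference 0.93, groups apart), and Cobl, an actin nucleator (188 and 389.9, 0.95). Baiap2l1 averaged 867 and 1225. In the terminal web and keratin list 7 of 8 were above 0 and none had an unadjusted p below 0.05. The non-muscle myosin Myh14 averaged 526 and 1025 there, Tpm3 1919 and 2362, and Krt8 27240 and 31727. Krt8, Krt18 and Krt19 of this list, and Elf3 of the transcription factor list, are also general epithelial markers. The partner lists are therefore not separate from the scaling by those markers.

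Genes around ezrin divided evenly, with 4 of 8 above 0 (49.6% of all genes tested). Slc9a3r1, the PDZ adaptor that ezrin holds under the membrane, averaged 1162 and 2337 (log2 difference 0.95), and Pdzd3 78.8 and 123 (0.63, groups apart). Msn, moesin, the ezrin relative of other cell types, averaged 907 and 735 (−0.30). Of 6 other transmembrane mucins listed, only 2 have a row, so the level of the rest is unknown here. Of these 2 only Muc20 reached the level tested, at 5.32 to 19.05 in core and 6.47 to 15.4 with R. intestinalis. The receptors Erbb3 and Erbb2, the latter a partner of Muc4, averaged 329 and 674 (0.98, groups apart) and 223 and 410.3 (0.78). The sheddase Adam17 averaged 387 and 329 (−0.24, groups apart and lower). Transcription factors of enterocyte differentiation were above 0 in 7 of 8 cases, with Elf3 at 1046 and 1639 (0.57), Klf5 at 582 and 738 (0.33) and Cdx2 at 464 and 613 (0.32), none with an unadjusted p below 0.05. R. intestinalis replicate 1 had the highest summed value in 5 of the 8 lists, the adhesion, actin, myosin, ezrin and transcription factor lists.

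**Figure D5:**
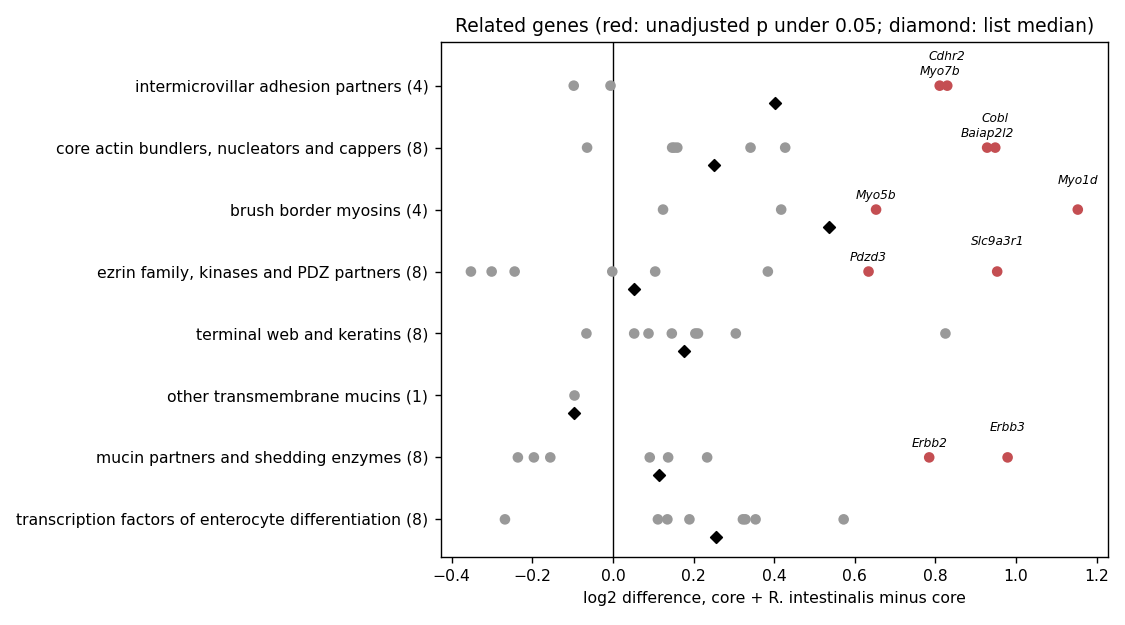
Log2 difference between the R. intestinalis and core groups (horizontal axis) for the 49 tested partner genes in 8 lists, with the number of tested genes in parentheses. Red points have an unadjusted limma p below 0.05 and diamonds are list medians. All 10 red genes lie above 0, from Pdzd3 (0.63) to Myo1d (1.15), and the highest list median is that of the brush border myosins (0.53). Of all genes tested, 4.44% were higher and 3.69% lower at such a p.

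The 6 genes whose log2 profile over the 8 libraries lay nearest to the mean of the members were Slc25a38, Myo10, Fgfr3, Setd8, Etv3 and Dpp3, at root mean square differences of 0.070 to 0.082. Myo10, an unconventional myosin of filopodia, averaged 207 ± 33.4 in core and 298 ± 94.5 with R. intestinalis, with 427 in R. intestinalis replicate 1. Fgfr3, a fibroblast growth factor receptor, averaged 130.0 ± 13.3 and 165 ± 46.9. In all 6 the groups overlapped, and the log2 differences ran from 0.28 to 0.48. Both largely follow from the choice, as the genes were picked for likeness to a mean profile whose groups overlap. Within libraries, the ratio of Cdhr5 to Vil1 was 1.20, 1.50 and 1.77 in core. It was 3.14, 2.07, 2.06, 1.70 and 1.68 with R. intestinalis, so the groups overlapped. The ratio of Myo1a to Vil1 averaged 0.515 ± 0.0456 and 0.608 ± 0.0387, and that of Ezr to Vil1 1.62 ± 0.0948 and 1.55 ± 0.236. In both ratios the groups overlapped, with Myo1a to Vil1 at 0.568 in core replicate 2 and 0.558 in R. intestinalis replicate 2.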

How the data were processed

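Stranded TruSeq mRNA libraries were made from TRIzol-extracted frozen tissue, per the labels' protocols. Bowtie2, RSEM 1.2.23 and the build mm9 appear in the submitters' processing notes without a role or order. Neither the annotation nor the comparison tool is given in those sources. The authors deposited a normalized expression signal per gene and library, and its values look like estimated reads over a single factor per library. The same table gives the authors' posterior probability as a score and their fold changes as a linear ratio.

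Depth was estimated as the sum of values over the step on which low values cluster (79.9% to 84.5% of values under 30 within 0.05 of a step), so whole reads were not assumed. Genes with a mean of at least 10 (13020, all 9 members among them) were tested on log2(value + 1), a scale on which changes of low genes come out too small, with limma 3.58.1 in R 4.3.3 (mean-variance trend, Benjamini-Hochberg threshold 0.05). The script was tested on simulated data. P-values cover the spread among these 8 mice alone. Groups were taken from the sample titles.

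Members and lists were chosen with earlier results of these data known. Named partners are up to 3 genes per list with the smallest p. A gene of 1 list is not reported here. Profile neighbours have a mean of at least 50, with predicted models, Riken clones, ribosomal protein and antigen receptor genes left out. Older symbols were matched through RefSeq synonyms. GC content and length come from the longest GENCODE M21 transcript of each symbol (99.0% of tested genes), promoters from RefSeq. Alternatives were other pseudocounts (0.5 and 5), other filters (none, or a mean from 50 up), scaling by a trimmed mean of M values, quantile normalization, no trend, library weights, the replicate number as a block, each library left out, and the 3 low-Hoxb13 libraries left out. Added after seeing the data: a lowess GC correction (span 0.3), values relative to general epithelial markers, and library weights without R. intestinalis replicate 3.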

Additional observations from a re-analysis of the deposited data

Results flagged for a closer look

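Muc13 in R. intestinalis replicate 1 lay far below the other 4 libraries of its group, at 15713 against 21695 to 23757. The gap to its nearest neighbour was 0.780 of the group's range on the log2 scale, above Dixon's critical value of 0.71 for 5 samples. It was the only one of the 9 members flagged in this way, and chance flags about 1 in 20 groups.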

How the results depend on the processing

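The 6 scaffold genes kept a difference above 0 under all 21 alternatives. The other filters and the fit without a trend cannot move this difference, the pseudocounts hardly did, and all alternatives reuse the same 8 libraries. The median log2 difference of the members ran from 0.27 to 0.73, and from 0.34 to 0.58 with single libraries left out. No member passed the adjusted threshold under any alternative except library weights, where 4 did (Cdhr5, Ush1c, Myo1a and Vil1, limma adjusted p = 0.0416 for each but Vil1, which had 0.0487). In that fit 455 of the 13020 genes passed, and 29.4% had an unadjusted p below 0.05. Those weights favoured R. intestinalis replicate 3 (7.98), and without it the weighted fit gave 0 members and 0 genes. With single libraries left out, between 0 and 0 members passed the adjusted threshold, between 0 and 5 had an unadjusted p below 0.05, and between 2 and 4 had groups apart, while the shares of all genes ran from 2.07% to 14.7% and from 6.61% to 19.8%. Relative to the general epithelial markers 2 had an unadjusted p below 0.05 (9.1% of all genes), and without the low-Hoxb13 libraries 6 had groups apart (36.5%). Muc13 turned to 0.11 after quantile normalization, 0.000492 with library weights, 0.044 with those weights and no R. intestinalis replicate 3, 0.036 without core replicate 3 and 0.065 without R. intestinalis replicate 1. Muc1 turned to 0.18 and Muc4 to 0.018 without the low-Hoxb13 libraries, and Muc4 to 0.016 without R. intestinalis replicate 4. With single libraries left out, Muc13 ran from −0.10 to 0.065, Muc1 from −0.93 to −0.12 and Muc4 from −0.38 to 0.016. For these turns the cause was not tested. With the replicate number of the titles as a block, 3 members had an unadjusted p below 0.05 (3.03% of all genes) and 0 passed. Libraries with the same title number did not deviate together (correlations across genes of −0.12, −0.53 and −0.07 for numbers 1 to 3). Matched by the numbers 3 to 5 of the sample names, the correlations were −0.011, −0.41 and −0.49. Neither numbering was therefore taken to pair the mice. Muc1, with 15 to 209 estimated reads, has the least depth behind it of the members.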
